A study of Homo sapiens with 8 samples.

Results

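A set of 9 genes of the actin skeleton and the nuclear lamina is described here on 8 arrays: ACTN1, ACTN4, FLNA, MYH9, TLN1, LMNA, LMNB1, CSRP1 and CSRP2. A probe set was taken when the platform annotation gave it exactly 1 gene symbol and that symbol was on this list. This gave 8 probe sets, 1 for each of 8 genes, of 8793 probe sets on the array, which name 7714 genes with 1 symbol. No probe set carried the FLNA symbol in the annotation used, so FLNA is not analysed here. The genes were chosen from the signals of these same 8 arrays, by line and plasmid, so their differences, and which of them the fit across all probe sets called, are given as a description and not as tests.

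Total RNA came from a pair of established human breast cancer lines, ZR75-1, which is ER-positive by its label, and SKBR3, labelled ER-negative. Each line formed 2 groups of 2 arrays, one transfected with a plasmid carrying HSD17B14, a hydroxysteroid dehydrogenase, and one with the same vector lacking it. All 4 groups shared the rest of the handling, which was phenol-red free medium with 4% serum, FuGene-6 transfection 24 h after seeding and harvest 48 h after that. The labels do not say whether duplicates were separate cultures or how many cells took up the plasmid, so any spread between arrays may be technical and every value is a mean over transfected and untransfected cells.

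The actin skeleton is built of filaments that need partners to become a load-bearing network. Alpha-actinins (ACTN1, ACTN4) tie filaments into bundles, filamin A (FLNA) joins them into a gel, and non-muscle myosin IIA, whose heavy chain is MYH9, pulls on them. Talin (TLN1) fastens the filaments to integrins at the membrane. Lamins A/C (LMNA) and B1 (LMNB1) line the inside of the nuclear envelope, and the A-type lamins are known to scale with the stiffness of a tissue. CSRP1 and CSRP2 are small proteins made mainly of LIM domains, zinc-binding modules that hold protein partners, and they bind alpha-actinin and zyxin. In breast cancer lines many of these genes are known to be expressed more in mesenchymal-like than in luminal cells.

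The cells labelled SKBR3 did not show the ERBB2 and GRB7 signals expected of that name. ERBB2, the receptor gene that SKBR3 is known to hold in many copies, read 25.9 to 46.8 on their arrays and 95.9 to 226 on the ZR75-1 arrays, and GRB7, its neighbour, read 4.1 to 14.9 against 8.9 to 67.7. STARD3, the other listed SKBR3 marker, read 27.5 to 36.4 against 24.8 to 30.3, with overlap, and was not called. VIM, the mesenchymal filament vimentin, read 3646.2 to 5325.8 in the cells labelled SKBR3 and 0.4 to 25.7 in ZR75-1. ESR1 read 14.9 to 24.6 against 194.5 to 341.6 in ZR75-1, and GATA3 284 to 416.4 against 1220.8 to 1638.8. The cells are therefore called SKBR3-labelled. All 7 luminal epithelial markers were higher in ZR75-1 by limma. Their summed signal was 15864.9 to 19477.9 in ZR75-1 and 4334.9 to 5953.2 in the SKBR3-labelled cells. Of 5 tested mesenchymal and fibroblast markers 1 was higher and 3 were lower in ZR75-1. Besides VIM the lower ones were FBN1, at 3.6 to 19.2 against 81.4 to 114, and COL6A3, at 1.3 to 16.9 against 47.7 to 63.8, while COL1A1 was higher, at 21.8 to 50.4 against 3.4 to 14.4. LUM, PDGFRB and SPARC of that list stayed at or under 9.7 on every array. HSD17B14 read 107.5 and 135.3 with the plasmid against 17.8 and 2.1 in ZR75-1, and 650.7 and 743.6 against 2.0 and 4.2 in the SKBR3-labelled cells.

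The sequences just upstream of the start sites are shown for the 5 genes with a call in a comparison described here, ACTN1, CSRP1 and CSRP2 between the lines and ACTN4 and LMNA with the plasmid in ZR75-1. Each is the 250 bases before the outermost start listed in RefSeq (GRCh38.p14), written 5′ to 3′ on the strand of the gene, with capitals marking GGGCGG, the GC box core, or its complement CCGCCC. The windows lie at chr14:68979303-68979552 (minus strand) for ACTN1, chr1:201507124-201507373 (minus) for CSRP1, chr12:76879020-76879269 (minus) for CSRP2, chr19:38647399-38647648 (plus) for ACTN4 and chr1:156082323-156082572 (plus) for LMNA.
ACTN1: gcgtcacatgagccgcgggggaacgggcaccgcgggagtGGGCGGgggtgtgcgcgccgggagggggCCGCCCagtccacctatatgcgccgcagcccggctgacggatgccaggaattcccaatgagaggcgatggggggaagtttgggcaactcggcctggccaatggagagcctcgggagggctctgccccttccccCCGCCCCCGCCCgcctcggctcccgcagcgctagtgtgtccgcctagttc
CSRP1: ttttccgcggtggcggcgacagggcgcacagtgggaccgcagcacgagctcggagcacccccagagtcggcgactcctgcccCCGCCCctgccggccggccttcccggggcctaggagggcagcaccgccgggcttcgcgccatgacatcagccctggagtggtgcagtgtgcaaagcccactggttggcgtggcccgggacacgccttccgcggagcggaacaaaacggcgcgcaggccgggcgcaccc
CSRP2: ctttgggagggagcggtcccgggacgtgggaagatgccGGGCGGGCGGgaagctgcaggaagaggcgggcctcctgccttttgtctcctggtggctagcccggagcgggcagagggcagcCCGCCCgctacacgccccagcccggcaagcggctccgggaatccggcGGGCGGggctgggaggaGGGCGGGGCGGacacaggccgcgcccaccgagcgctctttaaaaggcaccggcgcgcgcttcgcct
ACTN4: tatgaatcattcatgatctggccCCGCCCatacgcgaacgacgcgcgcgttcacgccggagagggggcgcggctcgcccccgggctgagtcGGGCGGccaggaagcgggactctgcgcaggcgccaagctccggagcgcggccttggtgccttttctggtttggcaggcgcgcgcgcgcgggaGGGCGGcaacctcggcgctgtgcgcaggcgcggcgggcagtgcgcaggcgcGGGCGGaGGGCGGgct
LMNA: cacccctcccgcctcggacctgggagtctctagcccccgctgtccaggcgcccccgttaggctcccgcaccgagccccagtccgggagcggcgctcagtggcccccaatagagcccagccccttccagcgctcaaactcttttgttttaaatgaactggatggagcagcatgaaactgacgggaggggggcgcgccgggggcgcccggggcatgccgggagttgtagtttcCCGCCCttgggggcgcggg

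All 8 measured genes had a RefSeq promoter entry. At the outermost start, 7 of the 8 held GGGCGG on either strand, overlapping copies counted apart, as did 42.6% of 35116 promoter windows of this length. CSRP2 and MYH9 held 6 copies each, ACTN4 5, ACTN1 4, CSRP1, LMNA and TLN1 1 each, and LMNB1 0. The GC content of 7 windows lay between 68.8% and 74.4%, and that of LMNB1 was 48.4%, where the median of all windows was 58%. At the other listed start of LMNB1 it was 75.6%, with 4 copies of GGGCGG. The CArG box, the recognition sequence of the serum response factor, was in 0 of the 8 outermost windows and in 1 of the 18 windows of all their listed starts, an alternative start of ACTN1, and 1.16% of all windows held it. TATAAA was in 0 of the 8 (10.7% of all windows), and GGAATG, the core bound by TEAD factors, was in that of MYH9 alone (11.9%). A match or its absence describes these letters only.

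**Figure D1:**
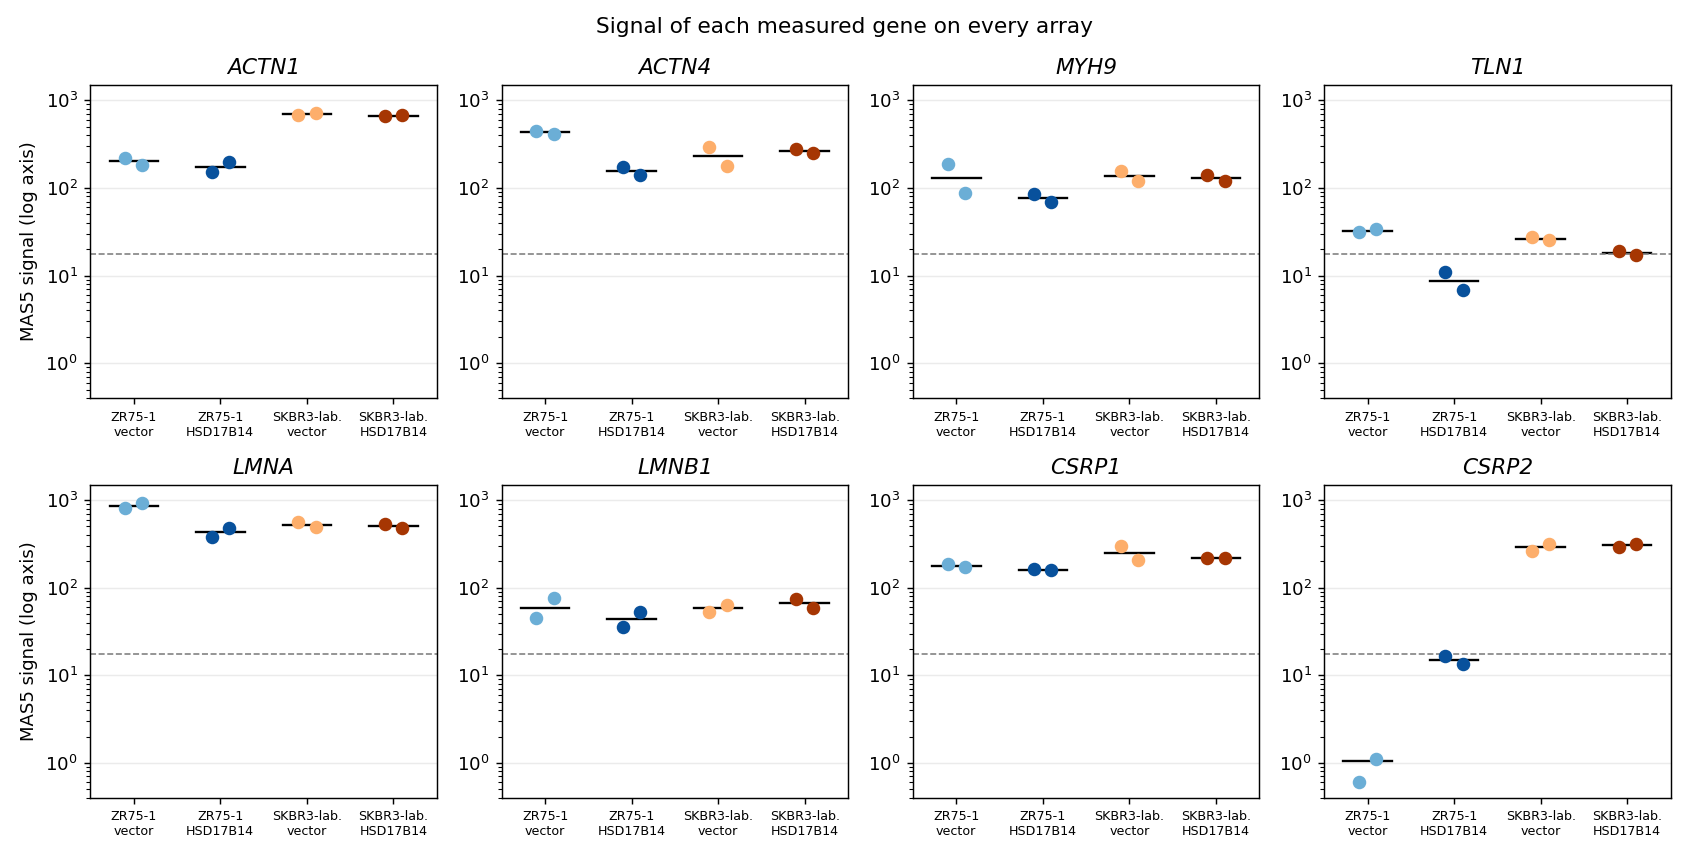
MAS5 signal (vertical log axis) of each of the 8 measured genes in the 4 groups, with 1 point per array, a bar at the group's mean log2 value with signals under 1 raised to 1, and a dashed line at the common floor of 17.6. ACTN1 and CSRP2 separate the lines, and ACTN4 and LMNA are highest on the ZR75-1 vector arrays. TLN1 and CSRP2 reach under the floor in ZR75-1, as does TLN1 narrowly with HSD17B14 in the SKBR3-labelled cells.

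Values are deposited MAS5 signals, 1 per probe set and array, and differences are on the log2 scale after signals under 1 were raised to 1, with limma's standard error. Dimness was judged at a floor of 17.6, the 40th percentile of the array where it was highest, and a value under it marks signals too dim to give a size. A fold against a group under it is a lower bound. All 8 genes passed the filter on low values, CSRP2 and TLN1 each by exceeding the 40th percentile of 6 of 8 arrays, and the others on all 8. CSRP2 exceeded it on the SKBR3-labelled arrays and, narrowly, on the ZR75-1 arrays with HSD17B14.

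The crosslinkers ACTN1 and ACTN4, close relatives, had different patterns. ACTN1 read 151.3 and 197.5 with HSD17B14 and 220.8 and 184.4 with the vector in ZR75-1, against 662.2 and 672.1 with HSD17B14 and 685.5 and 721.9 with the vector in the SKBR3-labelled cells. Every SKBR3-labelled array lay far above every ZR75-1 array, and within each line the signals stayed close together. The line difference, ZR75-1 minus SKBR3-labelled over 4 arrays each, was -1.88 ± 0.12, a fold of 3.67, and it was -1.80 ± 0.16 on the vector arrays and -1.95 ± 0.16 on the HSD17B14 arrays.

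ACTN4, the alpha-actinin linked to cell motility, read 451.9 and 414.2 on the ZR75-1 vector arrays and 172.7 and 141.7 on those with HSD17B14. Its SKBR3-labelled signals were 296.5 and 178.4 with the vector and 275.9 and 252.2 with HSD17B14. The ZR75-1 vector arrays were thus the highest of all and the ZR75-1 HSD17B14 arrays the lowest, with the SKBR3-labelled arrays between them. The plasmid difference was -1.47 ± 0.22 in ZR75-1, a fold of 2.77, and 0.20 ± 0.22 in the SKBR3-labelled cells, where the arrays overlapped. The order of the lines therefore turned with the plasmid, from 0.91 ± 0.22 on the vector arrays to -0.75 ± 0.22 on the HSD17B14 arrays, and their mean over all arrays was 0.08 ± 0.16.

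MYH9, the motor, read 187.1 and 88.2 with the vector and 85.1 and 69.9 with HSD17B14 in ZR75-1. In the SKBR3-labelled cells it read 155.1 and 118.9 with the vector and 141.7 and 120.7 with HSD17B14. ZR75-1 vector array 1 stood above the rest of its line, and the plasmid difference there was -0.74 ± 0.31, or -0.19 without that array. In the SKBR3-labelled cells the plasmid difference was -0.05 ± 0.31. The lines differed by -0.42 ± 0.22 with overlap, and by -0.69 without ZR75-1 vector array 1, where the fit called it.

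TLN1, the integrin linker, was dim throughout, between 6.9 and 33.7. It read 31.1 and 33.7 with the vector in ZR75-1 and 10.9 and 6.9 with HSD17B14, both under the floor, so that the vector arrays were at least 1.84-fold higher. In the SKBR3-labelled cells it read 27.3 and 25.6 with the vector and 18.9 and 17.0 with HSD17B14, the last just under the floor. The HSD17B14 arrays were the lower ones in both lines, with fitted differences of -1.90 ± 0.55 and -0.56 ± 0.55, and the former passed as a call only when signals were raised to the floor (-0.88).

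LMNA, the A-type lamin gene, read 806.8 and 916.5 on the ZR75-1 vector arrays and 381.9 and 484.8 with HSD17B14. The SKBR3-labelled signals were 563.1 and 488.8 with the vector and 535.1 and 480.3 with HSD17B14. As for ACTN4, the ZR75-1 vector arrays exceeded all others, and the other 6 arrays lay between 381.9 and 563.1. The plasmid difference was -1.0 ± 0.16 in ZR75-1, a fold of 2, and -0.05 ± 0.16 in the SKBR3-labelled cells. The line difference was 0.71 ± 0.16 on vector arrays and -0.24 ± 0.16 on HSD17B14 arrays.

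LMNB1, the B-type lamin, overlapped between the plasmid groups of each line and between the lines over all arrays. Its signals were 44.9 and 77.0 with the vector and 35.6 and 53.1 with HSD17B14 in ZR75-1, and 53.3 and 64.3 with the vector and 73.9 and 59.3 with HSD17B14 in the SKBR3-labelled cells. The plasmid differences were -0.44 ± 0.34 and 0.18 ± 0.34, and the line difference was -0.30 ± 0.24. On the HSD17B14 arrays alone both ZR75-1 signals lay under both SKBR3-labelled ones, at -0.61 ± 0.34, which was not called.

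The LIM proteins CSRP1 and CSRP2 shared the higher side, the SKBR3-labelled cells, but differed in size. CSRP1 read 188.5 and 170.5 with the vector and 162.5 and 159.0 with HSD17B14 in ZR75-1, against 301.3 and 208.1 with the vector and 217.8 and 216.3 with HSD17B14 in the SKBR3-labelled cells. The lines did not overlap, and differed by -0.46 ± 0.13, a fold of 1.37. CSRP1 did not pass as a line call after quantile normalization (-0.36), with a prior not dependent on the mean, or with adjustment for the actin 3'/5' ratio (-0.29).

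CSRP2, known from smooth muscle and from wound-activated cells, was bright in one line and dim in the other. It read 265.5 and 317.2 with the vector and 294.7 and 314.8 with HSD17B14 in the SKBR3-labelled cells. In ZR75-1 it read 0.6 and 1.1 with the vector and 16.4 and 13.5 with HSD17B14, all 4 under the floor. The SKBR3-labelled arrays were at least 16.9-fold higher than those of ZR75-1, and the fitted -6.23 ± 0.26 rests on how low the dim side is set. The plasmid difference within ZR75-1 was fitted at 3.83 ± 0.37, and its size cannot be given because both groups lie under the floor, where it becomes 0 once signals are raised to it. In the SKBR3-labelled cells the plasmid difference was 0.07 ± 0.37. VIM, the mesenchymal filament, read 25.7 and 0.4 with HSD17B14 and 6.9 and 23.2 with the vector in ZR75-1, with the plasmid groups overlapping.

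**Figure D2:**
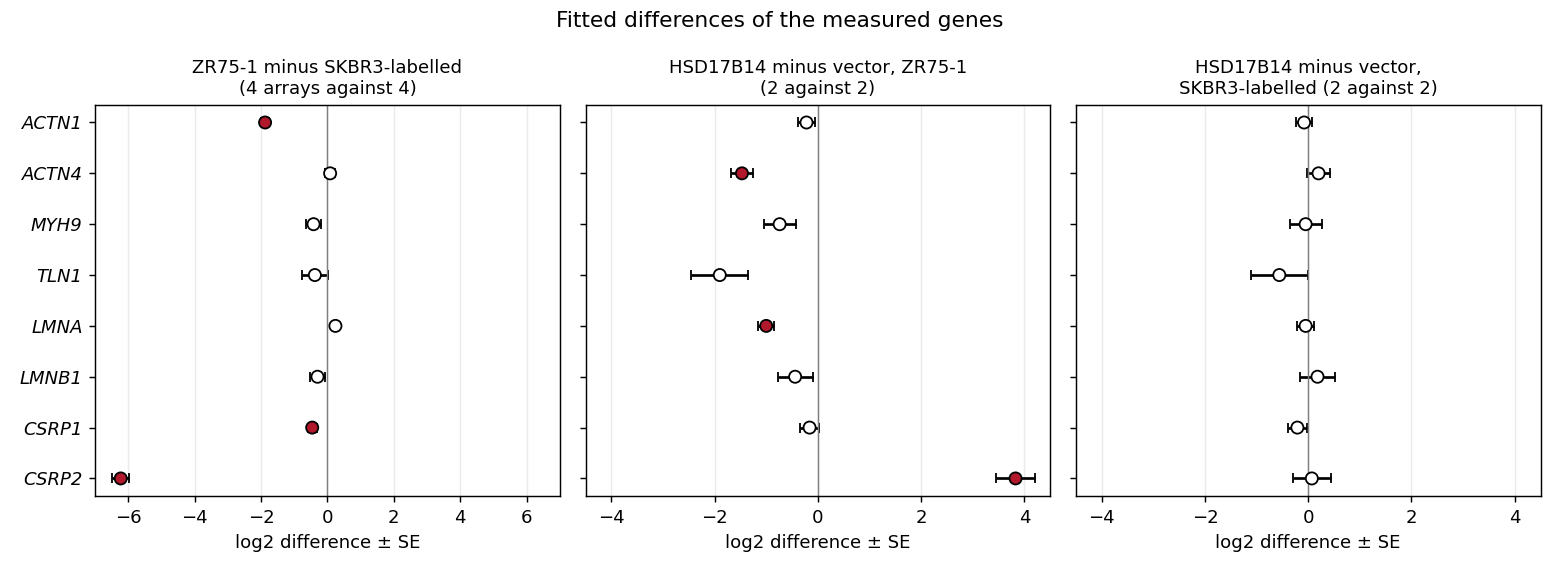
Fitted log2 differences (horizontal axis) with limma's standard errors for the 8 genes, for the line and for the plasmid in each line, with filled points for values past the adjusted p threshold of 0.05. The SKBR3-labelled panel holds no filled point, while the ZR75-1 panel has ACTN4 and LMNA at -1.47 and -1.0 and CSRP2 at 3.83, the last with all 4 signals under the floor.

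Read against all probe sets, the counts differ by comparison. Between the lines, 3 of 8 genes were called, ACTN1, CSRP1 and CSRP2, 0 higher and 3 lower in ZR75-1. Of the 6251 tested probe sets 49.2% were called, 23% higher and 26.1% lower. The same 3 were those whose arrays did not overlap between lines, where 42.5% of all probe sets did not, 19.8% higher and 22.7% lower. On the vector arrays alone 2 were higher and 2 lower in ZR75-1, and on the HSD17B14 arrays 0 and 3, where 40.2% of all probe sets (19.6% higher, 20.7% lower) and 33.2% (15.1% higher, 18.1% lower) were called. For the plasmid in ZR75-1 the 3 calls were CSRP2 higher, and ACTN4 and LMNA lower, where 1.52% of all probe sets were called, 0.736% higher and 0.784% lower. The arrays of 5 genes lay wholly lower with the plasmid in that line and those of 1 wholly higher, while 47% of all probe sets did not overlap, 26.3% lower and 20.7% higher. In the SKBR3-labelled cells 0 of 8 were called by limma, where 0.992% of all probe sets were called, 0.944% higher and 0.048% lower. The arrays of 2 genes lay wholly lower, ACTN1 and TLN1, where 40.1% of all did not overlap, 20.6% lower and 19.5% higher.

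The plasmid differences of the lines, which share no arrays, were also set against each other. ACTN4 differed by -1.67 ± 0.31 (ZR75-1 minus SKBR3-labelled) and CSRP2 by 3.76 ± 0.53, the 2 of 8 called where 0.624% of all probe sets were, 0.56% lower and 0.064% higher. The 6 others, LMNA at -0.95 ± 0.22, TLN1 at -1.34 ± 0.77, MYH9 at -0.68 ± 0.44, LMNB1 at -0.61 ± 0.49, ACTN1 at -0.15 ± 0.23 and CSRP1 at 0.05 ± 0.27, did not pass, which does not show that their values were alike. The value for CSRP2 has no size, since its ZR75-1 signals lay under the floor.

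**Figure D3:**
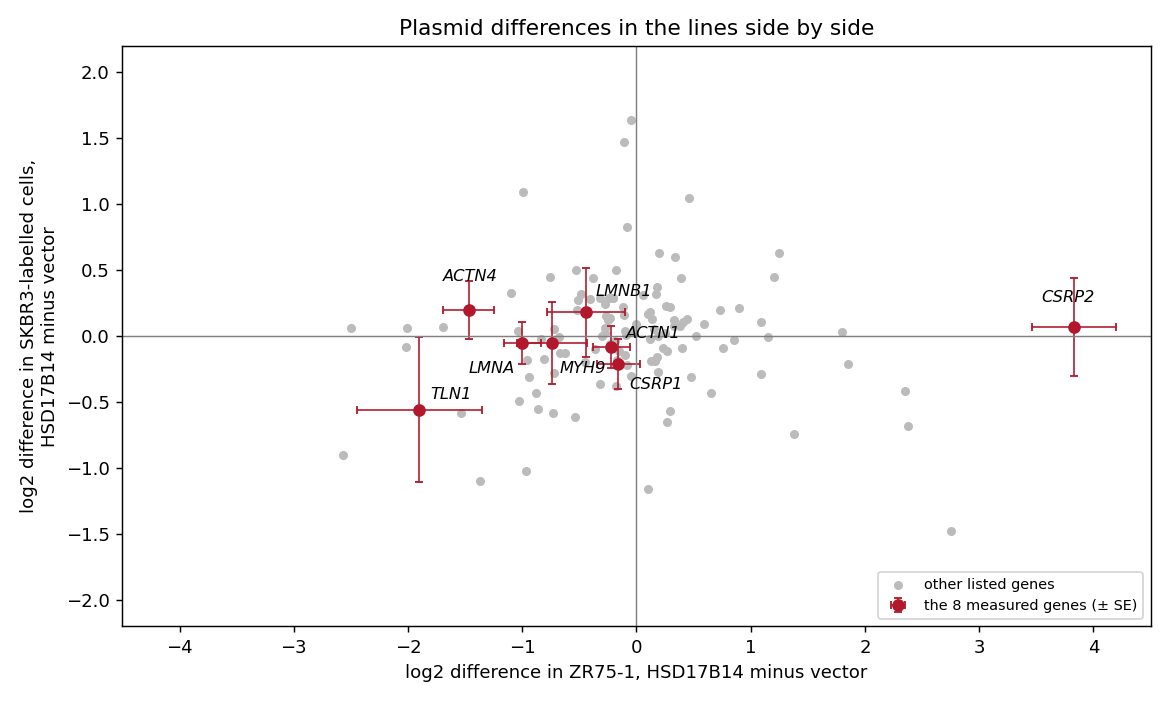
Log2 difference of HSD17B14 minus vector in ZR75-1 (horizontal) and in the SKBR3-labelled cells (vertical axis, which spans a narrower range), with standard errors for the 8 genes in red and other listed cytoskeletal and nuclear envelope genes in grey. The 8 genes spread from -1.90 to 3.83 along ZR75-1 and from -0.56 to 0.20 along the SKBR3-labelled cells.

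Several features of the ZR75-1 arrays moved with the plasmid. The actin 3'/5' ratio, a measure of RNA integrity, was 2.83 and 2.66 with HSD17B14 and 2.03 and 2.02 with the vector, and in the SKBR3-labelled cells 2.28 and 3.09 against 3.6 and 3.0. The GAPDH 3'/5' ratio lay the other way in ZR75-1, at 0.896 and 0.883 with HSD17B14 and 1.08 and 1.04 with the vector. With the actin ratio as a covariate ACTN4 was at -1.73, LMNA at -0.92 and CSRP2 at 3.83 in ZR75-1, and 0 of the 3 passed. Of all tested probe sets 1 passed in that setting, beside 95 in the main fit. The part of RNA quality in these values was not tested. ZR75-1 HSD17B14 array 2 also had high spike-in control signals, and among the arrays of low spike-in level its fellow, array 1, was at -1.32 for ACTN4, -1.17 for LMNA, -1.57 for TLN1 and 3.97 for CSRP2, 1 array against the 2 vector arrays. Median centring raised the median of all probe sets by 0.20 in ZR75-1 and by 0.13 in the difference between lines, and turned the ZR75-1 calls over all probe sets from 46 higher and 49 lower to 18 higher and 5 lower. LMNA was then at -0.79 and did not pass, and CSRP1 moved from -0.16 to 0.05 there.

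Of the 3 ZR75-1 calls, that of CSRP2 passed without any 1 array, and those of ACTN4 and LMNA did not. ACTN4 did not pass without ZR75-1 HSD17B14 array 1 (-1.61), HSD17B14 array 2 (-1.32) or vector array 1 (-1.40), and LMNA did not pass without HSD17B14 array 1 (-0.83) or vector array 2 (-0.91). With a prior not dependent on the mean, or with signals raised to the floor, neither passed, at the same differences of -1.47 and -1.0, and LMNA at -1.0 did not pass with spike-in level added as a block. In these settings 13, 91 and 19 of all tested probe sets passed, beside 95 in the main fit. CSRP2 did not pass with log2 of the value plus 32 (0.51), with signals raised to the floor (0) or with the actin ratio as a covariate (3.83). Its ZR75-1 signals all lay under that floor.

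For likeness of pattern, each gene's log2 values were centred on their mean over the 8 arrays, and the root mean square difference to 5549 tested genes was taken. Among the measured genes themselves ACTN4 and LMNA were the closest at 0.30, followed by MYH9 and CSRP1 at 0.33, while ACTN1 and ACTN4 were 1.11 apart and CSRP1 and CSRP2 3.22 apart. Nearest to ACTN1 over all genes were CUTA (0.08) and PSMG1 (0.09), which read 1158 to 1297.2 and 303.5 to 361.3 in the SKBR3-labelled cells against 280.8 to 362.1 and 68 to 95 in ZR75-1. Nearest to CSRP2 were HSD17B11 (0.66) and SRPX (0.70), both also dim in ZR75-1, with HSD17B11 at 0.7 and 0.6 on the vector arrays and 7.1 and 4.9 with HSD17B14. Nearest to TLN1 were EHMT2 (0.30), at 60.4 and 56.5 with the vector and 33.7 and 16 with HSD17B14 in ZR75-1, and PRRC2A (0.34), at 64.9 and 56.3 against 38.5 and 14.9. All 8 arrays share the line and plasmid structure, so likeness describes the pattern only.

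Other genes of the same machinery were taken from 8 lists on actin crosslinking, myosin and tropomyosin, actin turnover, focal adhesion linkers, LIM proteins, the nuclear lamina and envelope, membrane linkers, and targets of SRF and YAP. Of 159 listed genes 124 were on the array and 115 were tested. Between the lines, 21 were higher in ZR75-1, 53 lower and 41 did not pass, where 23% of all probe sets were called higher, 26.1% lower and 49.2% either way. The median difference was -0.43, beside -0.04 over all probe sets tested. Each list's counts below stand beside these same shares, and nothing particular to a list is read from them. The lists were chosen with earlier results of these data known, and the genes named have the largest moderated t of their lists. Their limma adjusted p-values are therefore a description and not tests.

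The crosslinking and motor genes stand beside 23% of all probe sets called higher and 26.1% called lower. Of 10 crosslinking genes 0 were higher in ZR75-1 and 5 lower (median -0.56), among them the bundler PLS3 at -1.17 ± 0.13 (adjusted p = 1.6e-05), the spectraplakin MACF1 at -4.58 ± 0.63 (adjusted p = 7.9e-05) and SVIL at -1.50 ± 0.25 (adjusted p = 4.22e-04). The size for MACF1 rests on ZR75-1 signals between 2 and 32.6. Of 19 myosin and tropomyosin genes 1 was higher and 10 lower (median -0.85). With signals raised to the common floor the medians of these lists were -0.38 for crosslinking and -0.51 for myosin and tropomyosin. The filopodial motor MYO10 was at -1.97 ± 0.17 (adjusted p = 1.45e-06) and the tropomyosin TPM4 at -1.52 ± 0.18 (adjusted p = 2.07e-05), while TAGLN2 was the 1 higher gene at 1.07 ± 0.10 (adjusted p = 2.73e-06).

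Genes of filament turnover went both ways, with 6 higher and 8 lower in ZR75-1 of 23 (median -0.19). The capping protein CAPG was at -3.40 ± 0.18 (adjusted p = 3.94e-08), and cortactin, CTTN, and the profilin PFN2 were at 2.21 ± 0.18 (adjusted p = 1.2e-06) and 1.43 ± 0.10 (adjusted p = 3.34e-07). Of 15 focal adhesion linkers 2 were higher and 7 lower (median -0.75). The caveola proteins CAV1 and CAV2 were at least 31.9-fold and 8.68-fold lower in ZR75-1 (adjusted p = 8.2e-08 and 2.02e-07), and the integrin-linked kinase ILK was at -1.20 ± 0.13 (adjusted p = 1.55e-05).

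LIM proteins other than the CSRPs went both ways, with 6 higher and 9 lower in ZR75-1 of 18 (median -0.93). CRIP1, a small LIM protein related to the CSRPs, read 1415.1 to 2002.2 in ZR75-1 and 0.6 to 2.5 in the SKBR3-labelled cells, at least 92.6-fold higher (adjusted p = 6.4e-10), the reverse of CSRP2. Its relative CRIP2 was at 3.47 ± 0.19 (adjusted p = 5.8e-08) and FHL2 at -2.24 ± 0.13 (adjusted p = 6.51e-08). Of 11 genes of the nuclear lamina and envelope 3 were higher and 3 lower (median 0.25). The prelamin A protease ZMPSTE24 was at 0.58 ± 0.10 (adjusted p = 3.8e-04), the inner membrane protein LEMD3 at 1.16 ± 0.21 (adjusted p = 6.53e-04) and the nucleoporin NUP153 at -1.70 ± 0.16 (adjusted p = 4.17e-06).

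Membrane linkers also went both ways, with 3 higher and 6 lower in ZR75-1 of 13 (median -0.52). NHERF1, the scaffold of ezrin, was at 3.39 ± 0.11 (adjusted p = 9.05e-10), and ANXA1 and MARCKS were at -2.88 ± 0.10 and -2.81 ± 0.12 (adjusted p = 1.22e-09 and 7.15e-09). Of 14 SRF and YAP targets 0 were higher and 10 lower (median -2.65, and -1.15 with signals raised to the common floor), and several of them, such as FHL2, stand on another list too. CCN1, a matricellular protein, was at -4.22 ± 0.17 (adjusted p = 4.72e-09), and AXL, a receptor kinase, read 275.4 to 561.2 in the SKBR3-labelled cells against 1.2 to 20.6 (adjusted p = 4.44e-07). The summed signal of the mesenchymal and fibroblast list moved with these genes, at 61.9 to 109.1 in ZR75-1 and 3827 to 5542.5 in the SKBR3-labelled cells, nearly all of it VIM, and its part in the counts was not tested. With adjustment for the actin 3'/5' ratio 48 of the 115 genes were called, 11 higher and 37 lower, all 48 among the 74.

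**Figure D4:**
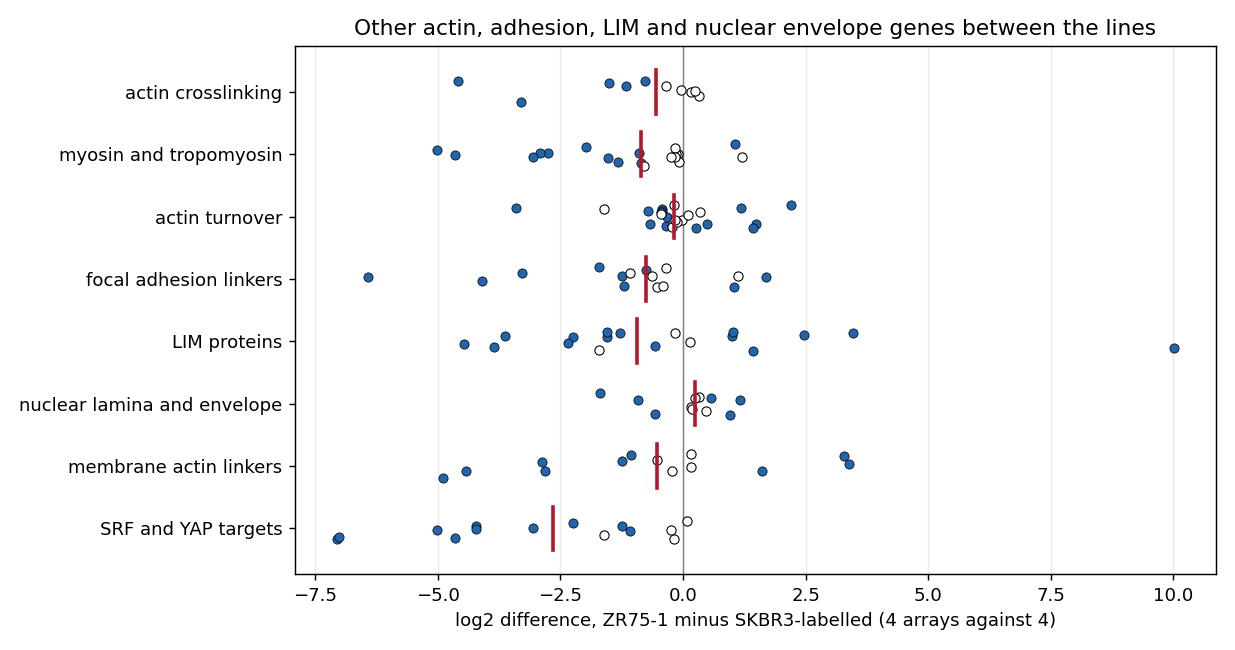
Log2 difference of ZR75-1 minus SKBR3-labelled cells (horizontal axis) for the tested genes of each list, 1 point per gene, filled where limma's adjusted p was under 0.05, with a red bar at the list's median. Medians lie below 0 in 7 of 8 lists, from -2.65 for SRF and YAP targets to 0.25 for the nuclear lamina and envelope, and CRIP1 stands alone at 10.01.

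For the plasmid in ZR75-1, 0 of 115 listed genes were called by limma, where 1.52% of all probe sets were, so that the count is near the share of all. The median difference of the 115 genes was -0.10, beside -0.04 for all probe sets. The genes with the largest moderated t of their lists did not pass. Zyxin, ZYX, the focal adhesion partner of the CSRPs and alpha-actinin, read 4.9 and 27.9 with HSD17B14 and 62.4 and 77.4 with the vector (-2.57 ± 0.66, adjusted p = 0.0734). The size for ZYX is not settled, since the signal of 4.9 lay under the floor. It was -1.11 with log2 of the value plus 32, where ZYX passed. The calponin CNN2 was at -1.03 ± 0.29, ICMT, which methylates prelamin A, at -0.84 ± 0.23, ANXA6 at -0.67 ± 0.18, SPTAN1 at -0.72 ± 0.29, PFN1 at -0.41 ± 0.14, TGFB1I1 at -2.01 ± 0.54 and AXL at 2.38 ± 0.72, with adjusted p from 0.0822 to 0.216. The signals of TGFB1I1 in ZR75-1 were all under the floor, between 2.1 and 17.4, as were those of AXL on 3 of 4 arrays, so neither difference has a settled size. Leaving out 1 array moved some sizes in ZR75-1. Without HSD17B14 array 2, ZYX was at -3.83, TGFB1I1 at -2.73 and AXL at 3.85. Without vector array 1, MACF1 was at 3.11, CNN3 at 2.52 and PDLIM3 at 4.12, beside 1.09, 1.09 and 2.35 with all arrays. The vector array then left read 2, 5 and 1.2 for these genes, under the floor.

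In the SKBR3-labelled cells 1 of 115 genes rose with the plasmid and 0 fell, where 0.944% and 0.048% of all probe sets were called. It was MYL12B, a regulatory light chain of the myosin whose heavy chain is MYH9, which read 1466.3 and 1906 with HSD17B14 and 734.2 and 891.8 with the vector (1.05 ± 0.16, adjusted p = 0.00608). It did not pass without HSD17B14 array 2 or vector array 1 of these cells, with signals raised to the floor, with a prior not dependent on the mean, or with adjustment for the actin 3'/5' ratio. The genes of largest moderated t in the other 7 lists were SPTAN1 at -0.28, ARPC1A at -0.36, PTK2 at 0.60, LMO2 at 1.64, LEMD3 at 0.63, ANXA2 at -0.57 and SRF at -0.38, with adjusted p from 0.381 to 0.916. The size for LMO2 is not settled, since its vector signals of 5.2 and 13.2 lay under the floor. The difference of the plasmid effects was called for 0 of 115 genes by limma, where 0.624% of all probe sets were. This difference was 4.53 for AXL without ZR75-1 HSD17B14 array 2, and 3.4 for MACF1 without ZR75-1 vector array 1. The smallest adjusted p of the genes with the largest t was 0.145, for NHERF1 at -0.81 ± 0.21, followed by PFN1 at -0.69 ± 0.20 (0.192), AXL at 3.06 ± 1.02 (0.248) and PDLIM5 at -0.82 ± 0.29 (0.278). Those of the other 4 lists were ILK at -0.50, MYL12B at -0.58, ICMT at -0.82 and ACTN2 at 4.23 ± 2.55, with adjusted p from 0.322 to 0.516. The sizes for ACTN2 and AXL are not settled, since 7 of 8 signals of ACTN2 and 3 of the 4 ZR75-1 signals of AXL lay under the floor.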

How the data were processed

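The deposited table holds signal intensities on a linear scale. The submitters' processing notes name MAS5 and give no version. The other columns of per-sample values numbered 0, so none was left out. Of 8793 probe sets 47 were controls, and 7840 of the rest carried 1 gene symbol in the platform annotation. Signals under 1 were raised to 1 and log2 was taken. A probe set was tested if it exceeded its array's 40th percentile (12.1 to 17.6) on at least 2 arrays, which left 6251. limma 3.58.1 in R 4.3.3 fitted 4 group means on all 8 arrays with a mean-dependent eBayes prior (4 residual degrees of freedom), and p-values were adjusted over all tested probe sets (Benjamini-Hochberg), with calls under 0.05. Arrays give no counts, so the number of arrays limits the precision.

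The genes and lists were chosen with earlier results of these data known. A gene was represented by its brightest probe set. Named list genes were up to 3 called per list and comparison with the largest absolute moderated t, or the 1 with the largest t where none passed. Promoter windows came from RefSeq GRCh38.p14. Alternatives were other scalings, filters, floors, priors, blocks, an RNA quality covariate and leaving out each array. Figures used matplotlib 3.10.9 in Python 3.11.15.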

Additional observations from a re-analysis of the deposited data

Results flagged for a closer look

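The plasmid difference of ACTN4 differed between the lines by -1.67 on the log2 scale (ZR75-1 minus SKBR3-labelled), past the threshold of the fit across all probe sets. It did not pass under 12 of 18 alternatives, among them every scaling tried and leaving out any 1 of the 6 other arrays than the SKBR3-labelled vector ones. The plasmid difference of CSRP2 differed by 3.76, also past the threshold, with all 4 ZR75-1 signals under the floor of 17.6, and it was -0.07 once signals were raised to that floor. Both genes were chosen with these values known, so neither value is a test.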

How the results depend on the processing

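With values raised to the common floor, a prior not dependent on the mean and adjustment for the actin 3'/5' ratio, the count of measured genes called for the plasmid in ZR75-1 (3) was 1, 1 and 0, that of list genes for the plasmid in the SKBR3-labelled cells (1) was 0, 0 and 0, and that of measured genes for the difference of plasmid effects (2) was 0, 0 and 0. Over all tested probe sets the calls in these settings were 91, 13 and 1 for the plasmid in ZR75-1 (95 in the main fit). They were 59, 9 and 37 in the SKBR3-labelled cells (62), and 28, 0 and 0 for the difference (39). Measured genes called for the difference were 1 after quantile normalization, median centring, no filter or log2 of the value plus 32. Of all probe sets tested 26, 7, 20 and 67 were then called. List genes called for the plasmid in ZR75-1 (0) were 2 with log2 of the value plus 32, where 262 of all were. Those called between lines (74) were 48 with the actin ratio, where 1750 of all were (3073 in the main fit). CSRP2's difference of plasmid effects was -0.07 with the common floor. Leaving out each array kept the line difference of ACTN1 between -1.97 and -1.78 and that of CSRP1 between -0.59 and -0.32. For the plasmid in ZR75-1, ACTN4 lay between -1.61 and -1.32 and LMNA between -1.17 and -0.83. For the difference of plasmid effects, ACTN4 lay between -2.03 and -1.3. The causes were not tested. Deviations of same-numbered arrays correlated between -0.04 and 0.06 over group pairs. The spike-in level partly followed the replicate number. It was low on array 1 of every group and high on array 2 of all but the ZR75-1 vector group. Whether same-numbered arrays were handled together was not tested. With the replicate number as a block, 3 measured and 72 list genes were called between the lines, where 3038 of all were. For the plasmid they were 3 and 0 in ZR75-1, where 104 of all were, and 0 and 1 in the SKBR3-labelled cells, where 67 were. For the difference of plasmid effects they were 2 and 0, where 42 of all were. Each measured gene has 1 probe set, so the alternative of other probe sets was not run. Signals under 17.6 limit CSRP2 and TLN1 in ZR75-1, and TLN1 on SKBR3-labelled HSD17B14 array 2 (17.0).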

Other observations

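CORO1A, a coronin that binds actin filaments and is known mainly from leukocytes, read 95.4 to 142.4 on the ZR75-1 arrays and 2.4 to 7.8 on the SKBR3-labelled ones. It was singled out after its values were seen. The defining leukocyte gene PTPRC stayed at or under 16.2 on all 8 arrays.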
